A study of Homo sapiens with 8 samples.

Results

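JUN, MYC, ATF3, ID2, HES1, TRIB1, MCL1 and MAFG encode regulators and are grouped here as short-lived immediate early mRNAs. Such mRNAs are made quickly after a stimulus and degraded quickly, and neither property was measured here. The 8 genes were chosen by name, as unstable mRNAs of the kind that accumulate when translation is blocked. They were chosen with earlier results of these data known. All 8 had Ago2 peaks in the authors' deposited table, 83 peaks of 22506 in all, in 8 of 6326 genes. RNA of 6 of the 8 was more than 2-fold higher after the translation blocker emetine, which is no independent check of the label. MCL1 RNA was only slightly higher and MAFG RNA was lower.

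Ago2 is the Argonaute protein that carries microRNAs to their target transcripts, and CLIP crosslinks it to RNA in the cell and sequences the RNA pulled down with it. The cells were 293S, which descend from HEK293, an established line from human embryonic kidney. One group was untreated and the other had received 20 µg/mL emetine, an alkaloid that stops ribosomes during elongation, for 60 minutes. Each treatment was 1 culture, split into 3 aliquots for CLIP with 3 different Ago2 antibodies and 1 aliquot for RNA-seq. The p-values below therefore measure the spread between aliquots and antibodies of 1 culture, not between cultures, and nothing here separates fewer expressing cells from less RNA per cell. Of 8 markers of the HEK293 line, only NEFL and LIN28B had listed peaks. None of the markers of blood cells, fibroblasts, hepatocytes or endothelium did. Only genes with Ago2 peaks are listed, so a missing marker does not show that its gene was not expressed.

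As background, transcripts of this class are short-lived because decay factors are recruited to their 3' UTRs by AU-rich elements, by Pumilio proteins and by microRNAs. When translation stops, such mRNAs can build up, both because decay is often coupled to translation and because labile repressor proteins are lost; this is called superinduction. JUN, ATF3 and MAFG are basic leucine zipper transcription factors, of which JUN is the AP-1 subunit, ATF3 a stress-induced member of the ATF/CREB family, and MAFG a small MAF protein that partners NRF2-type factors. MYC is a growth-promoting helix-loop-helix zipper factor, ID2 an inhibitor that binds helix-loop-helix factors and keeps them from DNA, and HES1 a repressor downstream of Notch. TRIB1 is a pseudokinase that brings substrates to the ubiquitin ligase COP1, and MCL1 is a labile survival protein of the BCL2 family.

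The motif TGTANATA, the core bound by Pumilio proteins, was searched on the transcript strand. It lay in the 3' UTR of 7 of 8 members, against 37.7% of the 5678 listed genes whose 3' UTR could be matched in GENCODE 29 (GRCh38). ATF3 had no match. Windows of 30 bases are shown for 5 of these members, with the motif in capitals, the number being the position of its first base after the stop codon.
JUN 516: ttaactgtgtaTGTACATAtatatattttt
JUN 630: ccagtgttgttTGTAAATAagagatttgga
JUN 783: tctgcatcatcTGTAGATActagctatcta
HES1 192: tgcactatattTGTATATAttttatatgtt
ID2 442: actgaatgctgTGTATATAtttatatataa
MCL1 693: tttgtaaaaatTGTATATAtttttacagaa
MAFG 4263: gtatttattgcTGTACATAgtgtatgtttg

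The pentamer ATTTA, the unit of AU-rich elements, was found in 7 of 8 member 3' UTRs and in 81.1% of all matched ones, HES1 being without it. Per kb of 3' UTR it numbered 8.40 in MYC, 3.88 in ID2, 3.54 in MCL1, 2.46 in ATF3, 2.33 in JUN, 1.38 in MAFG and 0.517 in TRIB1, against a median of 1.99 over all matched genes. The longer nonamer TTATTTATT occurred in 0 members and in 11.3% of matched 3' UTRs.

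As examples of the pentamer, stretches of MCL1 and ID2, starting at bases 1129 and 197 of the 3' UTR, are shown with ATTTA in capitals. The MCL1 stretch held 2 of the 10 pentamers in its 3' UTR and the ID2 stretch 1 of 3. Whether these stretches act as AU-rich elements was not tested.
MCL1: gacctaATTTAactggtgaaATTTAaagtg
ID2: tgtgatattcgttATTTAtgaaaaagactt

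The 2 members of the AP-1 and ATF families with a matched promoter motif carried the same 8 letters, TGACATCA, upstream of a transcription start listed in RefSeq (GRCh38.p14), 67 bases before it in JUN and 123 bases before it in ATF3. The search was for TGACNTCA on both strands from 250 bases before to 50 after each start, a window that held the motif in 7.72% of 35116 promoters. Promoters of 5 members were in the table, and ID2, HES1 and MAFG had no match in this window. The JUN site lies at chr1:58784096-58784125 on the minus strand and the ATF3 site at chr1:212565273-212565302 on the plus strand.
JUN promoter: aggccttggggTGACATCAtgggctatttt
ATF3 promoter: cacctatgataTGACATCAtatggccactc

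Among 23 microRNAs searched by the match to bases 2 to 8, the miR-27 site was in 3 members (ID2, MCL1 and MAFG, against 21.2% of matched 3' UTRs) and the miR-29 site in MCL1 and MAFG (19.5%), with 1 match in MCL1 and 4 in MAFG. Sites for miR-101 (TRIB1 and MCL1), miR-7 (ATF3 and MAFG) and miR-24 (JUN and MAFG) were also in 2 members each, against 15.5%, 15.7% and 18.4% of matched 3' UTRs. The let-7, miR-18, miR-21, miR-181 and miR-34 sites were in 0 members, and the other microRNAs had a site in 1 member each. MCL1 also held 1 site each for miR-17, miR-92, miR-101 and miR-26.

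To show the sites of the microRNAs whose matches MCL1 and MAFG share, mature sequences are given with the seed in capitals, and the MCL1 sites, starting at bases 1329 and 1620 of the 3' UTR, with the match in capitals. Peaks are listed on build hg19, so whether a motif or a site lies under a peak was not determined.
miR-29a-3p: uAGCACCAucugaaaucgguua
MCL1 miR-29 site: ctagtctaaccaTGGTGCTattattaggct
miR-27a-3p: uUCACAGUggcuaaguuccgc
MCL1 miR-27 site: ttagattttggcACTGTGAaacccctgctg

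The first comparison asked how much of each RNA was present with and without emetine. RNA of JUN, ATF3, ID2, TRIB1, HES1 and MYC was more than 2-fold higher with emetine. There was 1 RNA library per treatment, so these values have no test and no replicate check. A log2 ratio above 1 was found for 6 of the 8 members and for 0.844% of the 5807 genes that had 50 or more RNA reads. Because the members were chosen with earlier results of these data known, this difference is a description and no check of the label. The median log2 ratio was 1.12 over the members and 0.01 over all of these genes, whose SD was 0.35.

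JUN RNA was counted in 1391 emetine reads and 225 control reads, or 3491 and 1434 after normalisation, a log2 ratio of 1.28 (95% exact binomial interval 1.08 to 1.49). Among the members it had the most reads, and its ratio ranked 16 among the 5807 genes. ATF3 had 236 and 41 reads and a log2 ratio of 1.18 (0.70 to 1.70), and ID2 had 124 and 22 reads and 1.14 (0.49 to 1.88). The fewest reads and the widest interval among the members were those of ID2. TRIB1 had 309 and 56 reads with a log2 ratio of 1.12 (0.70 to 1.56), HES1 331 and 60 reads with 1.12 (0.72 to 1.54), and MYC 224 and 43 reads with 1.03 (0.56 to 1.54). The intervals of these 6 genes overlapped one another, so their order is not resolved by the counting error, which is all the intervals cover. Of the 6, only JUN had an interval wholly above a log2 ratio of 1. For the others a change of less than 2-fold lies within the counting error.

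MCL1 and MAFG stood apart from these 6. For MCL1 there were 876 emetine and 285 control RNA reads, giving a log2 ratio of 0.28 (95% exact binomial interval 0.08 to 0.47), below the lower bound of each of the other 6. The MAFG RNA was the only member with less RNA after emetine, 235 reads against 132, which is 590 against 841 after normalisation and a log2 ratio of -0.51 (-0.83 to -0.19). It lay at percentile 5.68 of the 5807 genes and MCL1 at percentile 82.7, whereas the other 6 lay at percentile 99.2 or above.

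**Figure D1:**
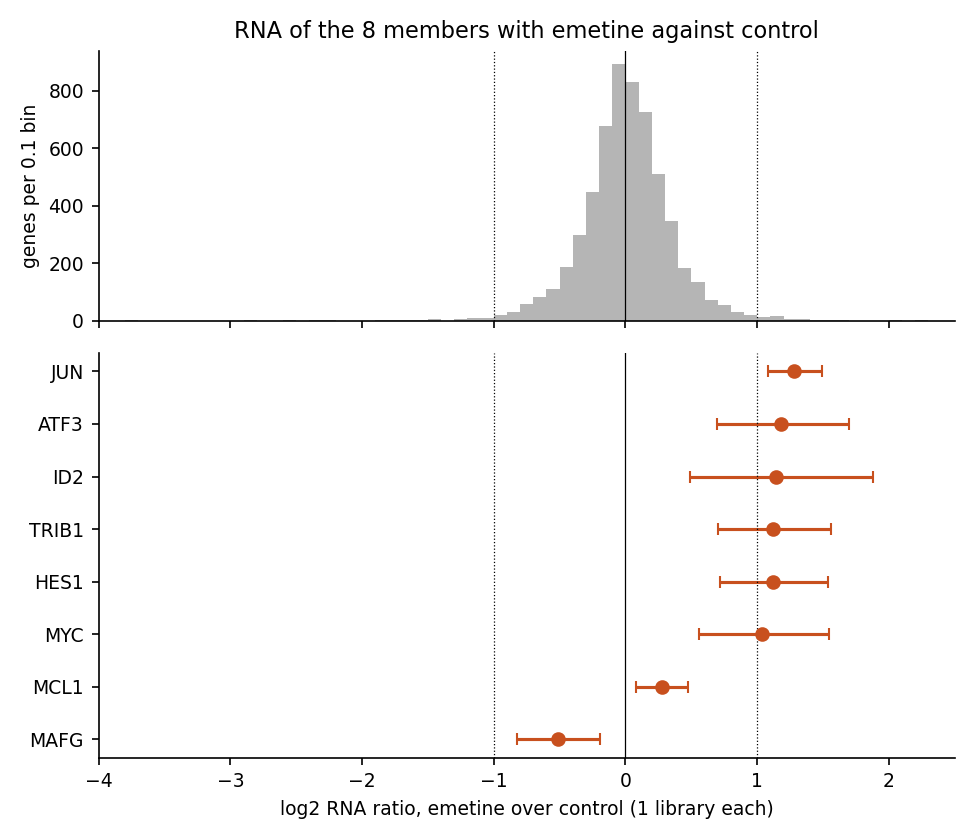
Upper panel, number of genes per 0.1 bin of the log2 RNA ratio (emetine over control) for the 5807 genes with at least 50 RNA reads; lower panel, the 8 members with 95% exact binomial intervals, dotted lines marking ratios of -1 and 1. Points for 6 members lie between 1.03 and 1.28, MCL1 lies at 0.28 and MAFG at -0.51.

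Per kb of transcript the order of the RNA levels differed between the treatments. In the control, the normalised RNA value per kb was highest for MCL1 (501) and JUN (405), then HES1 (242), MAFG (167), ATF3 (129), MYC (116), ID2 (102.97) and TRIB1 (98.2). With emetine JUN came first (986), before MCL1 (606), HES1 (526), ATF3 (291), MYC (238), ID2 (229), TRIB1 (213) and MAFG (117). The 95% exact Poisson intervals, which cover counting error only, overlapped between all neighbours in the control except JUN and HES1. With emetine they were separate between JUN and MCL1, between HES1 and ATF3, and between TRIB1 and MAFG (190 to 239 and 102.5 to 133), and overlapped between the other neighbours. Transcript lengths are those of the GENCODE transcript with the longest 3' UTR and would shift these levels if a shorter form were the main one.

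Other immediate early and short-lived mRNAs were counted beside the members. Of 98 genes on the list, 55 had listed peaks and 44 of those had at least 50 RNA reads. In this group 33 had a log2 RNA ratio above 0 (51% of all genes did) and 11 below 0, the median was 0.28, and 4 exceeded 1. Those 4 were DUSP10, a MAP kinase phosphatase, at 1.37 (95% exact binomial interval 0.30 to 2.67), the zinc finger factor gene KLF11 at 1.11, ZFP36L2, whose protein binds AU-rich elements, at 1.05, and CITED2, a CBP/p300-binding regulator, at 1.03. The lowest were JUND, a relative of JUN, at -0.37 (-1.05 to 0.34), the small MAF gene MAFK at -0.27, TRIB2 at -0.18 and VEGFA at -0.16. None of the 44 was below -1, a level that 0.792% of all genes fell under.

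The second comparison asked whether Ago2 reads on these transcripts differed with emetine. None of the 83 member peaks and none of the 8 members passed the test. In limma 0 of 22471 peaks (0%) and 0 of 6318 genes (0%) had an adjusted p under 0.05, the smallest adjusted p being 0.784 for peaks and 0.800 for genes. At an unadjusted p under 0.05 limma gave 3 of the 83 member peaks, all in MCL1 and all higher with emetine. They are not 3 separate sites, since the peaks at 150548208-150548281 and 150548250-150548283 overlap. Over all peaks, 0.752% were called higher at this level and 0.294% lower. No member had an unadjusted p under 0.05 in limma at the gene level. The authors' log values allowed whole reads to be worked out for each library, and emetine libraries 1 to 3 held between 38488 and 103588 reads in peaks and control libraries 1 to 3 between 37377 and 116177. Library 1 of each treatment is the one in which a read counted most after normalisation and library 3 the one in which it counted least, and which antibody each used is not known. The median standard error over genes was 2.01 on the log2 scale, so not passing does not show that a gene was unchanged.

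The fitted log2 change of summed Ago2 reads was above 0 for 7 of 8 members, with a median of 0.81 against 0.04 over all genes. ID2 is among the 7, although its mean normalised reads were lower with emetine, 16.8 against 26.5. Both values depended most on control library 1, without which 4 of 8 members were above 0 and the median was 0.0502, against -0.37 over all genes. The count was 6 of 8 without emetine library 1 and without emetine library 2. It was also 6 of 8 with a constant of 5 before the log, with TMM scaling and with limma-voom. The share of all genes above 0 was not counted in any setting. With all libraries the median over all genes lay just above 0, so many other genes had a positive change as well. MCL1 was the only member in which every emetine library lay above every control library, an arrangement seen in 2.99% of all genes, and 0 members had the opposite one, seen in 2.18%. MAFG was the only member with a negative change.

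MCL1 had the most peaks, 30, of which 28 lay in the 3' UTR. Emetine libraries 1 to 3 held 50, 206 and 173 reads over them and control libraries 1 to 3 held 32, 101 and 130. After normalisation these are 443, 619 and 486 against 256, 285 and 316, so the groups did not overlap. The change came to 0.84 on the log2 scale (SE 0.56; n = 3 libraries per treatment; limma adjusted p = 0.800), and the exact two-sided permutation p was 0.1, the smallest that 3 against 3 libraries can give. Counting overlapping peaks once, so that no read enters a ratio more than once, the depth-scaled ratio of read totals came to 1.63 (95% exact binomial interval 1.38 to 1.92). The RNA ratio of MCL1 was smaller, 0.28 on the log2 scale. Intervals on ratios of read totals, here and below, cover counting error only and not the spread between libraries.

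JUN had 14 peaks, 10 of them in the 3' UTR. Its emetine libraries held 20, 121 and 102 reads and its control libraries 7, 28 and 82, or 177, 363 and 286 against 56.0, 79.0 and 199 after normalisation. Control library 3 lay above emetine library 1, so the groups overlapped. The log2 change was 1.45 (SE 0.82; limma adjusted p = 0.800), and the ratio of read totals with overlaps counted once was 2.07 (95% exact binomial interval 1.61 to 2.68). RNA and Ago2 values of JUN were thus both higher, by 1.28 and 1.45 on the log2 scale. The Ago2 change was 1.25 with overlapping peaks counted once, and 1.07 to 1.97 with each library left out in turn. Which of the RNA and Ago2 changes was larger is therefore not resolved.

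MAFG had 16 peaks and fewer Ago2 reads with emetine, 29, 41 and 5 against 37, 71 and 76. The normalised values were 257, 123 and 14.03 against 296, 200 and 184, and emetine library 1 lay within the control range. The log2 change was -1.51 (SE 0.89; limma adjusted p = 0.800), and -0.318 without emetine library 3, which was lowest. The ratio of read totals was 0.422 (95% exact binomial interval 0.294 to 0.598).

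For MYC the 4 peaks held 12, 54 and 111 reads with emetine and 7, 66 and 82 in the control, or 106.4, 162 and 312 against 56.0, 186 and 199 after normalisation. The ranges overlapped, the log2 change was 0.45 (SE 0.84; limma adjusted p = 0.920), and it was -0.135 without control library 1. The ratio of read totals was 1.16 (95% exact binomial interval 0.892 to 1.504), which includes 1 by counting error alone, next to an RNA log2 ratio of 1.03. TRIB1, with 8 peaks, held 15, 48 and 43 reads against 2, 82 and 49. Its emetine values were close together after normalisation, 133, 144 and 121, while its control values spread from 16 to 231. The log2 change was 0.77 (SE 0.98; limma adjusted p = 0.826) and -0.325 without control library 1, and the ratio of read totals was 1.03 (0.784 to 1.36).

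HES1, with 6 peaks, held 16, 73 and 8 reads with emetine against 1, 19 and 44. The overlap between groups was wide, from 22.5 to 219 with emetine and from 8.0 to 106.8 in the control after normalisation, and the log2 change was 1.27 (SE 1.22; limma adjusted p = 0.800), or 0.236 without control library 1. The ratio of read totals was 1.68 (95% exact binomial interval 1.22 to 2.35). The least covered members were ATF3 and ID2. ATF3 held 0, 9 and 15 reads against 0, 20 and 0 over 2 peaks, with a log2 change of 1.46 (SE 2.39; limma adjusted p = 0.895). That change was 3.41 without control library 2 and 0.456 without emetine library 3. ID2 held 3, 7 and 1 reads against 0, 11 and 20 over 3 peaks. Its log2 change was 0.18 (SE 2.04; limma adjusted p = 1.00), whereas the ratio of read totals was 0.394 (0.179 to 0.806), in the other direction; the change was -1.59 without control library 1 and -0.35 without emetine library 1.

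**Figure D2:**
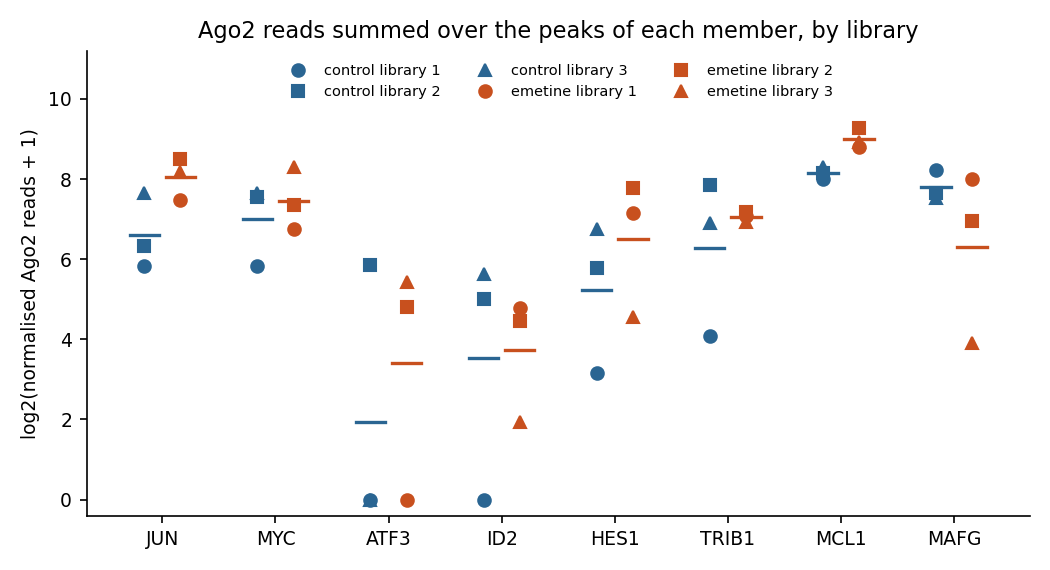
Ago2 reads summed over all peaks of each member, as log2(normalised reads + 1), for the 3 control (blue) and 3 emetine (orange) libraries; marker shapes number the libraries within a treatment and bars are means. MCL1 is the only member whose emetine values all lie above its control values, and ATF3 and ID2 have libraries at 0.

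Most member peaks lay in 3' UTRs, 70 of 83 or 84.3%, against 57.6% of all peaks, and 7 lay in coding sequence and 6 in 5' UTRs. MCL1 (28 of 30 peaks) and MAFG (15 of 16) gave most of these 3' UTR peaks. The others had 10 of 14 (JUN), 7 of 8 (TRIB1), 3 of 3 (ID2), 3 of 4 (MYC), 3 of 6 (HES1) and 1 of 2 (ATF3). Per kb of 3' UTR the number of listed peaks was highest in MCL1 (9.92), JUN (7.77), MYC (6.30) and HES1 (6.01), followed by ID2 (3.88), TRIB1 (3.62), MAFG (3.5) and ATF3 (0.818), with a median of 0.595 over all matched genes. Among the 83 peaks, 49 had a positive and 34 a negative log2 change, with a median of 0.66 against 0.01 over all peaks. The positive share was 59.0%, against 50.2% of all peaks. MCL1 and JUN together had 34 positive and 10 negative, whereas the other 6 members had 15 positive and 24 negative, and 5 of those 6 had a median below 0. Overlapping peaks share reads, and 68 peaks remained when each run of overlapping peaks was counted once. In 27 of the 83 a single library held over 80% of the reads, and 6 had reads in all 6 libraries.

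All emetine libraries lay above all control libraries in 6 member peaks, 3 in MCL1, 2 in JUN and 1 in TRIB1, where 2.55% of all peaks did so. The opposite arrangement was found in 0 member peaks and in 1.42% of all peaks. These 6 are not 6 separate sites, since 2 of the MCL1 peaks overlap.

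Within the MCL1 3' UTR, neighbouring peaks went in different directions. The peak at chr1:150548208-150548281 held 7, 14 and 18 reads with emetine and 0, 0 and 8 in the control, a ratio of read totals of 5.42 (95% exact binomial interval 2.495 to 13.4) and a log2 change of 4.25 (SE 1.83; limma unadjusted p = 0.0201, adjusted p = 0.784). Its overlapping neighbour at 150548250-150548283 held 5, 3 and 14 against 0, 0 and 1. The next peak along the chromosome, at 150548305-150548352, held 1, 23 and 17 against 2, 8 and 0, most of them in 2 emetine libraries. On the other side, the peak at 150548063-150548102 had 1, 0 and 0 reads against 5, 24 and 2, a ratio of 0.0358 (0.000879 to 0.215). With a log2 change of -3.57 (SE 1.96; limma adjusted p = 0.784), it was the most negative of the 83. The highest log2 change of the 83, 4.39 (SE 2.07; limma unadjusted p = 0.0338, adjusted p = 0.784), belonged to the peak at 150549157-150549197, which held 2, 17 and 3 reads with emetine and none in the control, at least 8.15-fold higher when 3 reads in total are taken as the limit for the controls. The deepest MCL1 peak, at 150548532-150548560, showed little difference in total reads, 4, 5 and 30 against 1, 1 and 33, and most of them came from library 3 of each treatment. Its ratio of read totals was 1.24 (0.764 to 2.01), while its fitted log2 change was 1.39 (SE 1.64, limma adjusted p = 0.784).

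JUN reads were concentrated in 1 stretch of the 3' UTR. The peak at chr1:59247266-59247334 held 6, 28 and 35 reads with emetine and 4, 6 and 13 in the control, a ratio of 3.33 (95% exact binomial interval 2.05 to 5.601) and a log2 change of 1.52 (SE 1.43; limma adjusted p = 0.784). The libraries did not overlap after normalisation. Next to it, 3 overlapping peaks between 59247356 and 59247409 shared most of their reads, 17 in emetine library 2 and 7 in emetine library 3. In the control these reads came from library 3 alone, with 12 reads at 59247356-59247377 and 20 at 59247368-59247391. Relative to RNA the deposited log2 ratio of the deepest JUN peak was 0.24, the RNA being higher as well.

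MYC binding was dominated by 1 region. The overlapping peaks at chr8:128753276-128753318 and 128753282-128753387 in the 3' UTR held 3, 11 and 40 reads and 9, 39 and 69 reads with emetine, against 1, 20 and 16 and 2, 45 and 52 in the control, and the wider of them took 65.1% of all MYC reads listed. The wider peak had a ratio of 1.31 (95% exact binomial interval 0.996 to 1.73) and a log2 change of 0.92 (SE 1.24; limma adjusted p = 0.825), with -0.0541 without control library 1. Its average relative to RNA lay at percentile 99.5 of all peaks. Another peak at 128753445-128753479 held 1 read against 12, all 12 in control library 3.

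In TRIB1 the changes had both signs along the 3' UTR. The peak at chr8:126450079-126450135 held 10, 32 and 19 reads against 1, 17 and 13, a ratio of 2.19 (95% exact binomial interval 1.40 to 3.49), a log2 change of 1.68 (SE 1.45; limma adjusted p = 0.784) and no overlap between groups. The next at 126450139-126450176 held 2, 10 and 9 against 0, 0 and 9. By contrast the peak at 126450554-126450622 held 1, 0 and 3 reads against 1, 17 and 8, a ratio of 0.171 (0.0434 to 0.493) and a log2 change of -2.20 (SE 1.88; limma adjusted p = 0.784). The difference between these peaks was not tested.

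**Figure D3:**
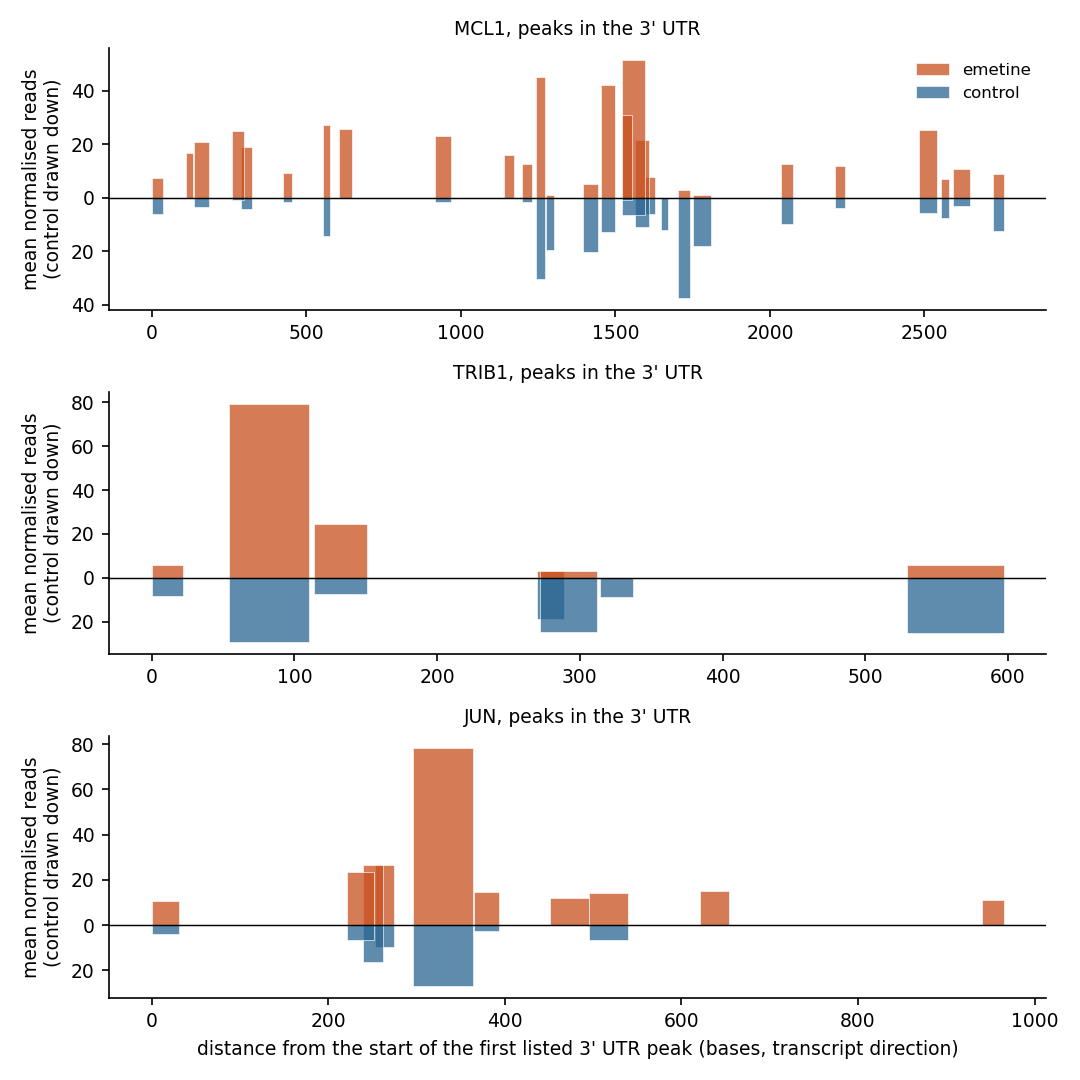
Mean normalised reads over 3 libraries in each listed 3' UTR peak of MCL1, TRIB1 and JUN, emetine drawn upward and control downward, against the distance in bases from the first listed peak in transcript direction. Darker patches are overlapping peaks; in MCL1 tall emetine bars and tall control bars stand next to each other, and in TRIB1 the emetine bars are taller in the pair of tall peaks nearest the start and the control bars in the last peak.

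Peaks of the other members held fewer reads. In HES1 the 3' UTR peak at chr3:193856100-193856142 had 0, 45 and 5 reads against 1, 14 and 9, so that the ratio of read totals was 2.31 (95% exact binomial interval 1.40 to 3.94) while the log2 change was -0.68 (SE 1.74; limma adjusted p = 0.948), the direction turning on emetine library 1, without which the change was 1.16. The HES1 peak at 193856220-193856264 had 5, 23 and 1 against 0, 1 and 6, and the 5' UTR peak at 193853975-193854005 had 8, 3 and 0 against 0, 2 and 2. The ATF3 3' UTR peak at chr1:212793369-212793410 had 0, 9 and 15 reads against none, at least 8.89-fold higher by the same limit. Its coding peak at 212792845-212792868 had none against 20, at least 6.0-fold lower, all 20 in control library 2. The ID2 3' UTR peaks on chromosome 2 had 2 reads against 13 at 8823827-8823858, none against 11 at 8823987-8824009, and 9 against 7 at 8824269-8824298. Each of the control totals at these ID2 peaks came from 1 library. For MAFG on chromosome 17, the deepest peaks had 5 reads against 24 at 79878521-79878621, 2 against 20 at 79880426-79880464, and 16 against 4 at 79877565-79877587, where all 16 came from emetine library 2.

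The last comparison set Ago2 against RNA. The authors' deposited table gives for each peak a log ratio of emetine to control after division by the RNA of the gene. Of the 83 peaks, 45 were above 0 and 38 below, with a median log2 ratio of 0.24 against 0.05 over all peaks. A ratio above 1 was listed for 25 peaks and one below -1 for 28, where 34.2% and 33.1% of all peaks were past these values, so the members' shares were close to those of the table. MCL1 had the highest median, 1.15 over 30 peaks with 22 above 0, and JUN had 0.42 with 9 of 14 above 0. The medians of MAFG (-0.20), ATF3 (-0.44), MYC (-1.12), HES1 (-1.38), ID2 (-1.41) and TRIB1 (-1.90) were negative in the authors' deposited table, and no MYC peak was above 0. Peaks of a gene share 1 RNA ratio, which enters each of these values, so they are not independent of the RNA comparison.

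**Figure D4:**
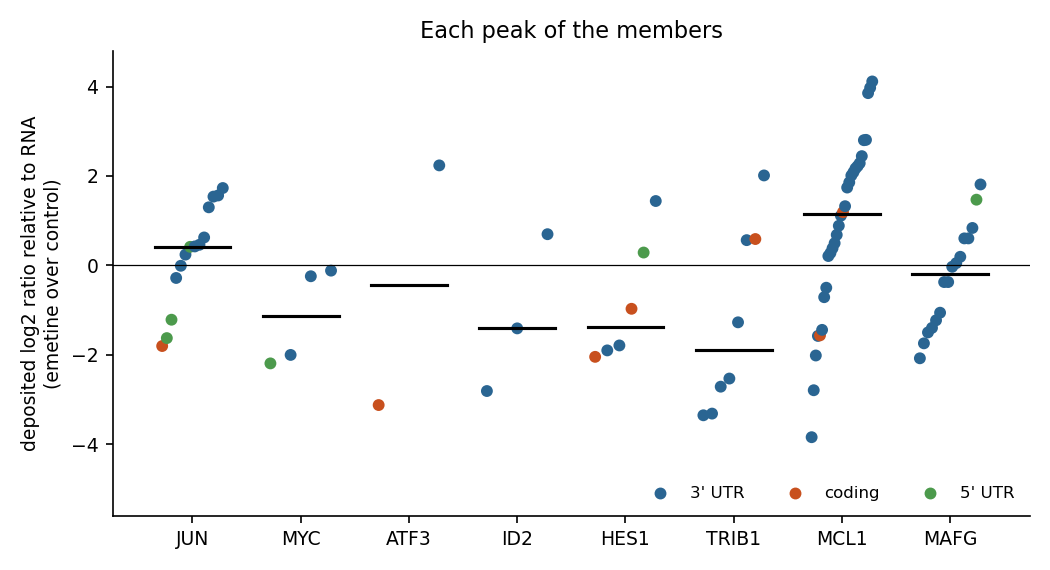
Deposited log2 ratio of Ago2 relative to RNA (emetine over control) for each of the 83 peaks, coloured by transcript region and sorted within each member, with black bars at the median. All 4 MYC peaks lie below 0, and MCL1 peaks range from -3.84 to 4.11.

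Ago2 reads per unit of RNA placed most members high among the 5807 genes in both treatments. The mean normalised Ago2 value divided by the normalised RNA value was 0.343 with emetine and 0.535 in the control for MYC, at percentiles 97.1 and 98.5. For TRIB1 these quotients were 0.171 and 0.341, for MAFG 0.222 and 0.269, for MCL1 0.234 and 0.157, for HES1 0.154 and 0.146, and for ID2 0.0538 and 0.188. JUN, with the most RNA, had 0.0789 and 0.0776, and ATF3 had 0.0388 and 0.0717, next to medians of 0.0218 and 0.0233 over all genes. The ATF3 percentiles were the lowest of the 8 with 65.1 and 78.6. The summed Ago2 change was smaller than the RNA ratio for 4 of 8 members, MYC, ID2, TRIB1 and MAFG, and larger for the other 4, where 48.7% of all genes had the smaller Ago2 change. That count was 7 of 8 without control library 1 (56% of all genes) and 7 of 8 without emetine library 2 (54.5%). It was 5 of 8 with overlapping peaks counted once (48.9%) and 3 of 8 without control library 2 (42.9%). The split also depended on the summary used. By read totals with overlaps counted once, the log2 ratios of JUN (1.05), HES1 (0.75) and ATF3 (0.42) were below their RNA ratios too. That of MCL1 (0.70) stayed above. Differences between the fitted change and the RNA ratio, which were not tested, ran from -0.997 for MAFG to 0.57 for MCL1.

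**Figure D5:**
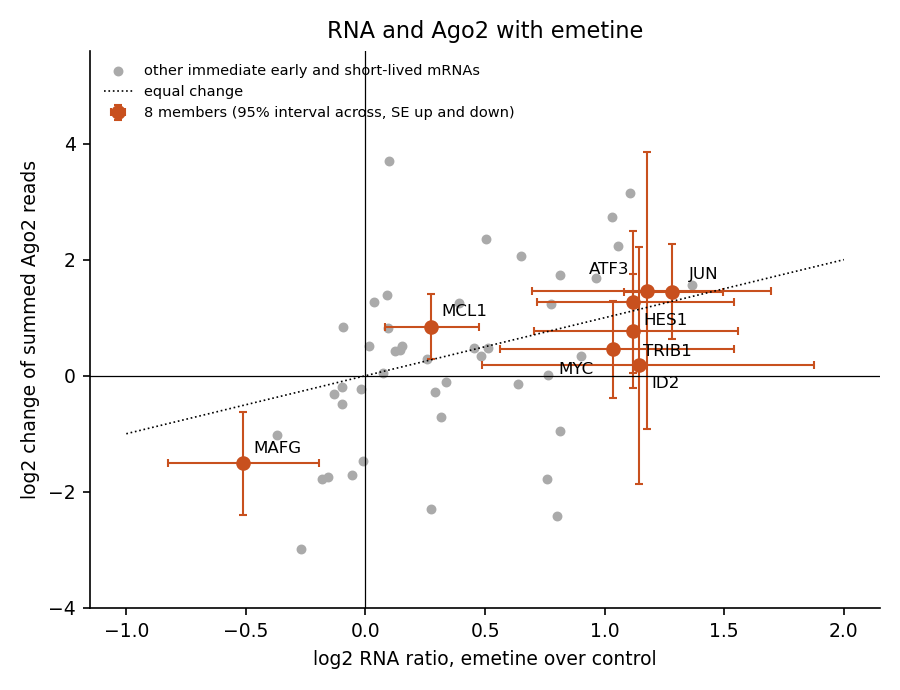
Log2 change of summed Ago2 reads (emetine against control, with SE, n = 3 libraries per treatment) against the log2 RNA ratio (1 library per treatment, with 95% exact binomial interval) for the 8 members in orange and the 44 other immediate early and short-lived mRNAs with at least 50 RNA reads in grey; the dotted line marks equal change. MAFG is the only member below 0 on both axes.

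Among the 55 other immediate early and short-lived mRNAs with peaks, 32 had a positive and 23 a negative change of summed Ago2 reads, with a median log2 change of 0.34 against 0.04 over all genes. The share of all genes with a positive change was not counted. In limma 0 of the 55 passed after adjustment, as for all genes, and 1 had an unadjusted p under 0.05 where 1.87% of all genes did. That gene, named after its value was seen, was SKIL, a repressor of SMAD signalling, with 8, 52 and 12 reads against 0, 1 and 19 and a log2 RNA ratio of 0.10.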

How the data were processed

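The authors deposited 1 table of Ago2 peaks holding natural log values, made by the authors as a log average and a log ratio of emetine to no emetine relative to RNA, per the file headers; the base of the log was recognised from the values. The submitters' processing notes list hg19, Bowtie 0.12.8, TopHat and DESeq without saying what each was used for, and how peaks were called is not given in the sources used here. Whole reads for 3 CLIP libraries and 1 RNA library per treatment were solved from the 2 columns, each log value being an average over libraries of the log of scaled reads plus 1, less that of RNA. A solution within 2e-13 was found for 22471 of 22506 peaks (99.8%), all 83 member peaks included, and the other 35 were left out of tests. A read was worth 8.86, 3.00 and 2.81 (emetine CLIP), 8.00, 2.82 and 2.43 (control CLIP), and 2.51 and 6.37 (emetine and control RNA).

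limma 3.58.1 in R 4.3.3 was fitted with a trend to log2(scaled reads + 1) over all peaks and, summed, all genes, with treatment alone and Benjamini-Hochberg adjustment. The deposited unit is no count, so no count model was used. The code was tested on simulated data. For gene sums with a small spread between libraries (dispersion 0.1), limma found 88 of 100 8-fold and 42 of 100 4-fold changes. With a dispersion of 1 it found 0 of 100 at either fold. Python 3.11.15 and scipy 1.17.1 gave exact intervals and permutation tests; intervals and limits for 0 reads cover counting error only. All 8 members were named, with the 3 deepest peaks of each and the most extreme changes, and the 4 highest and 4 lowest RNA ratios of the other list. The members and lists were chosen with earlier results of these data known. Alternatives covered constants, scaling, limma-voom, filters, left-out libraries, regions and overlapping peaks. Counting overlapping peaks once, and limma-voom with limited weights, were chosen after seeing the data.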

Additional observations from a re-analysis of the deposited data

How the results depend on the processing

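No member and no described peak passed under any alternative run, the adjusted p from limma ranging from 0.623 to 1.00. No peak was called under any alternative. For genes, limma-voom as planned called 2, MALAT1 and XIST, neither a member, against 0 in the trend fit; its median standard error over genes was 18.6 against 2.01. After that result was seen, limma-voom was run again with weights limited at percentile 99, which called 0 genes with a median standard error of 1.64. At an unadjusted p under 0.05 the trend fit gave 235 peaks and 118 genes, limma-voom as planned 555 and 2, and with limited weights 558 and 413. The other alternatives gave 167 to 457 peaks and 68 to 198 genes. Both limma-voom runs gave the directions that follow for it. The change of summed Ago2 reads of ID2 (0.181) was -0.196 with a constant of 5, -0.000355 with TMM scaling and -0.824 with limma-voom. The HES1 peak at 193856100 had 0.0428 with limma-voom, and the MAFG peak at 79877565 had 0.0751 with a constant of 5 and 0.291 with limma-voom. With each library left out in turn, the summed change ranged from -0.135 to 0.81 for MYC, -1.59 to 1.22 for ID2 and -0.325 to 1.56 for TRIB1. The peak changes ranged from -2.92 to 0 for ATF3 at 212792845, -0.0989 to 2.99 for HES1 at 193853975, -2.39 to 1.16 for HES1 at 193856100, -1.67 to 1.41 for ID2 at 8823827, -2.5 to 0 for ID2 at 8823987, -2.19 to 0.905 for MAFG at 79877565, -0.014 to 1.32 for MYC at 128753276, -0.0541 to 1.4 for MYC at 128753282 and -1.79 to 0.667 for MYC at 128753445. These directions turn on fewer samples; the cause of the others was not tested. Peaks with reads in fewer than 3 libraries have no value under that filter. The RNA ratios stayed within their intervals under the alternatives run, total-read scaling moving JUN from 1.28 to 1.36 and MAFG from -0.512 to -0.439. The members' median Ago2 change was 0.412 with limma-voom. No paired analysis was possible because the labels pair libraries by antibody and the recovered libraries carry no antibody or replicate number.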

Other observations

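Genes outside the 8 members with the most similar pair of values were sought among 1918 genes with at least 200 RNA reads and 50 Ago2 reads, by the distance of their log2 RNA ratio and log2 change of summed Ago2 reads from the members' medians of 1.12 and 0.81. The nearest was HIST1H2AH, a replication-dependent histone with near-identical copies that may share its reads, with an RNA ratio of 1.11 and an Ago2 change of 0.98 (SE 1.36). Next came FAM83D, a spindle protein, with 0.99 and 1.05, ZNF503 with 0.86 and 1.01, BRD2, a bromodomain reader of acetylated chromatin, with 0.60 and 0.83, KLF10 with 0.90 and 0.34, and CDKN1B, the cell cycle inhibitor p27, with 0.58 and 0.61. None of the 6 passed in limma, with adjusted p from 0.800 to 0.991.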
